A study of Mus musculus with 6 samples.

Results

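Semaphorins, their plexin and neuropilin receptors and the plexin-domain proteins were represented by 33 of the 32531 gene features counted in each library. They were taken by symbol: 20 semaphorin genes, 9 plexin and 2 neuropilin genes, which make 11 receptors, and the genes Plxdc1 and Plxdc2. The data are from adult mice of the line Lhx5-TRAP DT154, in which the ribosomal protein L10a, fused to EGFP, is made under the control of Lhx5, so that antibodies to EGFP pull down ribosomes of Lhx5-driven cells with the RNA they hold. All libraries come from the hypothalamus of untreated control animals of this single line. There were 3 libraries of immunopurified RNA (IP) and 3 of the RNA left in the unbound fraction, which the sample titles name Input. No library from mice without the transgene was analysed here, and the sources do not say whether the libraries of a group came from separate animals, so p-values measure the spread between these libraries only.

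Semaphorins are secreted, membrane-spanning or lipid-anchored proteins that guide growing axons and, in the adult brain, act on dendrites, synapses and glia. Most bind plexins, whose intracellular part switches off small GTPases of the Ras family. Secreted class 3 semaphorins mostly need a neuropilin to hold them on an A plexin, while semaphorins of classes 4 to 7 bind plexins directly. In the hypothalamus the family is best known for steering the neurons that make gonadotropin-releasing hormone and for the wiring of melanocortin neurons.

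Reads counted on genes numbered 32471045 to 46293837 per library in IP and 32926146 to 40768577 in unbound RNA. Lhx5 stood at 56.7, 58.1 and 70.5 CPM (read counts relative to library size after TMM scaling) in IP replicates 1 to 3, against 2.03, 1.86 and 6.29 CPM in unbound replicates 1 to 3. Of 20 pan-neuronal markers 14 were higher in IP and 1 was lower, whereas all 10 oligodendrocyte and all 10 astrocyte markers tested were lower. Unbound replicate 3 differed from the other unbound libraries in several gene lists. Its sum of striatal and cortical markers was 156 CPM, against 2090 and 1980 CPM in unbound replicates 1 and 2. Its sum of oligodendrocyte markers was 7020 CPM, against 3830 and 3650 CPM. A further 2 lists were added after the data were seen, so they describe this library and do not test its tissue label. The summed level of 10 hypothalamic peptide genes was 12.3 CPM there, against 152 to 234 CPM in the other unbound libraries, and that of 10 midbrain and hindbrain genes was 155 CPM, against 7.38 and 15.1 CPM. IP replicate 3 had the lowest summed level of the 33 genes among the IP libraries (1050 CPM, against 1520 and 1560 CPM). Results are therefore also given without the third pair, that is without IP and unbound replicates 3. The level of the family itself was among the reasons, so calls gained in that fit are no independent support for its rises.

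Of the 32 genes of the family that passed the filter on low counts, 7 were higher and 3 lower in IP at an adjusted p under 0.05 (edgeR's quasi-likelihood test, Benjamini-Hochberg adjustment over 16991 genes). These are 21.9% and 9.38% of the family, beside 21.1% of all genes tested that were higher and 23.2% that were lower. The share of the family that rose was close to that of all genes, and together 10 of 32 (31.2%) passed, beside 44.3% of all genes. Among ligands 4 of 19 tested rose and 1 fell, and among receptors 3 of 11 rose and 2 fell. The median log2 fold change, IP over unbound, was -0.00066 for ligands and 0.34 for receptors, beside -0.01 for all genes. Groups did not overlap for 7 genes with every IP library above the unbound ones and for 3 with every IP library below, against 27.1% and 28.7% of all genes. Those below were Plxnb3, Plxnb1 and Sema6d, of which Sema6d did not pass the test. The 7 that rose were Nrp2, Nrp1, Plxna1, Sema4a, Sema4f, Sema6b and Sema6c, and those that fell were Plxnb3, Plxnb1 and Sema7a.

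**Figure D1:**
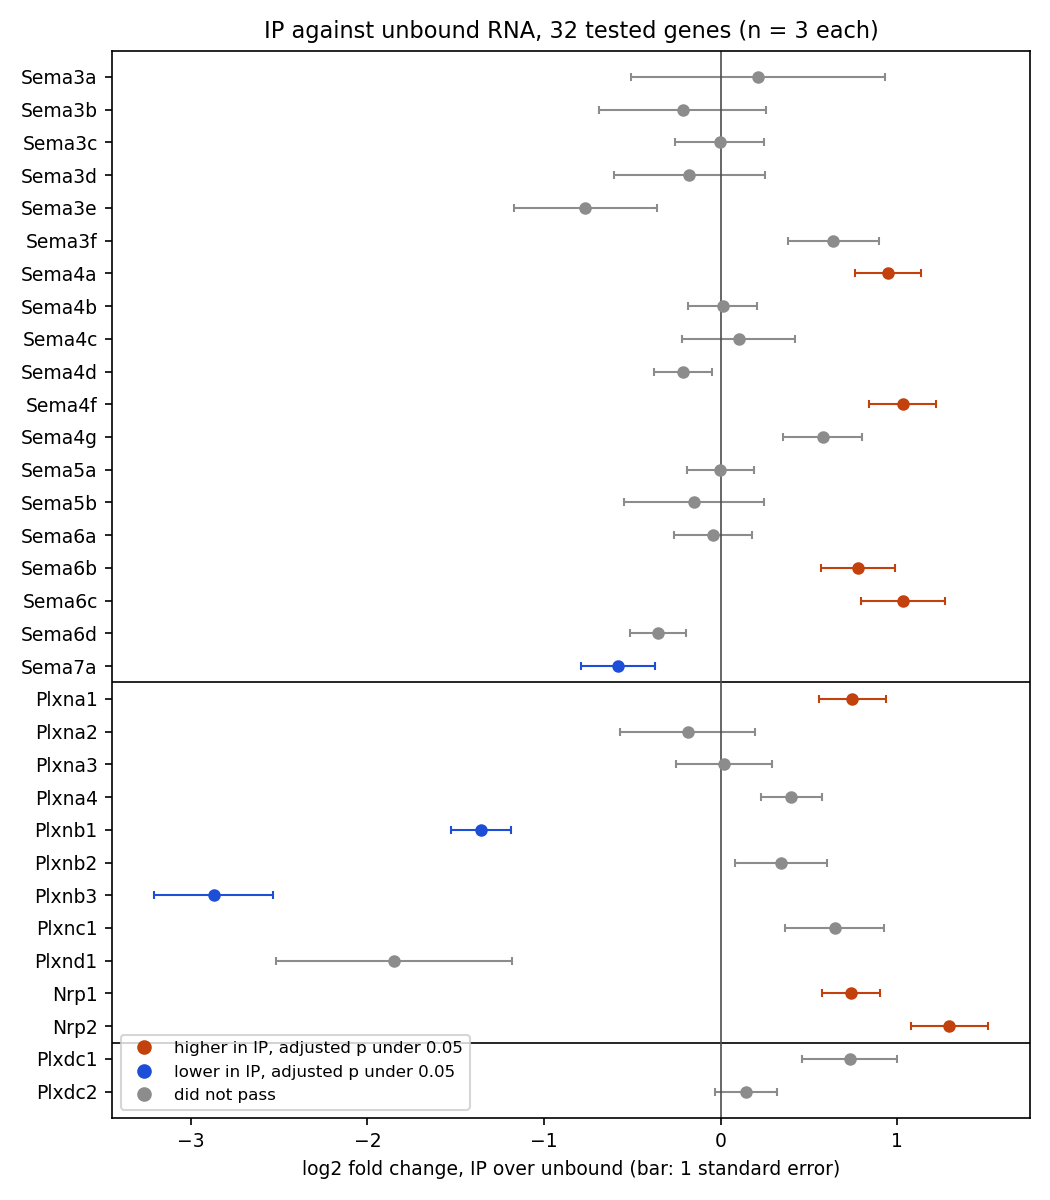
Log2 fold change, IP over unbound, with 1 standard error for the 32 genes tested (n = 3 libraries each), ligands at the top, receptors in the middle and the plexin-domain genes at the bottom. Orange genes were higher and blue genes lower at an adjusted p under 0.05. The values run from -2.87 for Plxnb3 to 1.30 for Nrp2.

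The count depended on the libraries used and on the pairing of IP and unbound libraries by replicate number. Without the third pair 12 genes rose and 4 fell of 32 (37.5% and 12.5%), beside 26.0% and 27.3% of all genes in that fit. The genes added as higher were Sema3f, Sema4g, Plxna4, Plxnc1 and Plxdc1. IP replicate 3 was the lowest IP library for 29 of the 32 genes, so leaving it out raises their IP means by itself. Unbound replicate 3, left out with it, was the lowest unbound library for 17 of the 32 genes, so their unbound means rise as well. Those added as lower were Sema3e and Plxnd1, and Sema7a did not pass. In the fit with a replicate block 10 were higher and 5 lower (31.2% and 15.6%), beside 23.3% and 23.6% of all genes. Without unbound replicate 3 alone 9 were higher and 5 lower, beside 24.0% and 25.8% of all genes. With lane 2 libraries alone, 2 per group, the neuropilins were the 2 genes higher and Plxnb1 and Plxnb3 the 2 lower, beside 7.49% and 14.7% of all genes. Rises and falls are relative to the scaling of the libraries. Scaled on pan-neuronal markers, which moved the median of all genes by -0.58, Nrp2 was the 1 gene still higher and 10 were lower, beside 4.18% and 45.1% of all genes.

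**Figure D2:**
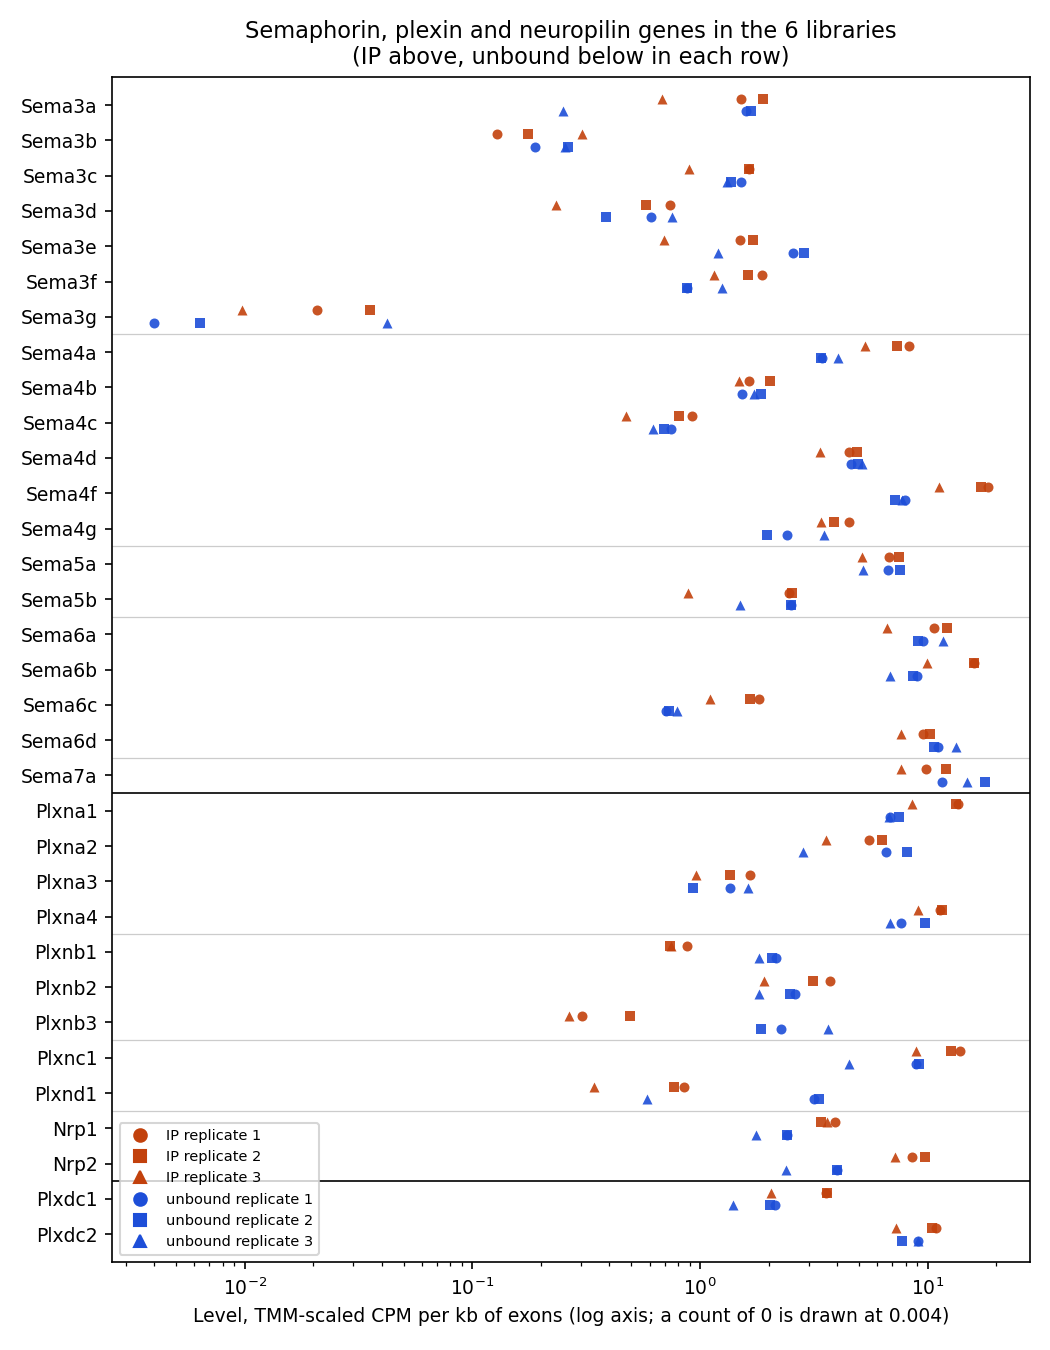
Level of each of the 33 genes in each library, as TMM-scaled CPM per kb of exons on a log axis, with IP libraries on the upper and unbound libraries on the lower line of each row. The symbol gives the replicate, and a count of 0 is drawn at the left edge. Levels span from below 0.05 for Sema3g to 18.4 for Sema4f in IP replicate 1, and the triangles of IP replicate 3 lie to the left of the other IP libraries in most rows.

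Levels between genes are compared here as CPM per kb of annotated exons. Sema4f, a transmembrane semaphorin, had the highest ligand level in IP at 15.6 ± 3.8 CPM per kb, followed by Sema6b at 14.0 ± 3.45 (mean ± SD, n = 3). Their ranges overlapped, although Sema4f was above Sema6b in each of the 3 IP libraries. In unbound RNA the order began with Sema7a at 14.7 ± 3.07 CPM per kb, ahead of Sema6d at 11.7 ± 1.46, and Sema4f had rank 5 at 7.62 ± 0.39. Class 3 semaphorins were low in both groups. They made up 6.76% ± 0.82 of the summed ligand level per kb in IP and 8.09% ± 1.65 in unbound libraries (SD, n = 3 each), and these ranges overlapped. Among receptors Plxna1, Plxnc1 and Plxna4 led in IP, at 11.8 ± 2.87, 11.8 ± 2.56 and 10.6 ± 1.4 CPM per kb. The same 3 genes led in unbound RNA at 7.03 ± 0.40, 7.52 ± 2.61 and 8.07 ± 1.52 CPM per kb. Among these 3 genes the ranges of neighbours overlapped in both groups. In IP the first gap without overlap between neighbours lay between Nrp2 (8.48 ± 1.28) and Plxna2 (5.12 ± 1.41). In unbound RNA it lay at the bottom of the order, between Plxnb1 and Plxna3 (2.02 ± 0.18 and 1.30 ± 0.35), so the receptors above formed a run of overlapping ranges. For ligands the first such gap lay below Sema5a in IP and below Sema6a in unbound RNA.

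Of the 7 class 3 semaphorins, the secreted repellents and attractants that signal through neuropilins, 6 were tested. With all libraries 0 passed in the reported edgeR fit, in DESeq2 or in limma-voom. At an unadjusted p under 0.05 the reported edgeR fit took 1, Sema3f. Sema3f, a ligand of Nrp2 that repels axons, stood at 9.79, 8.49 and 6.0 CPM in IP libraries, against 4.54, 4.54 and 6.50 CPM in unbound libraries. Only the third pair overlapped, with IP replicate 3 below unbound replicate 3. Its log2 fold change was 0.64 ± 0.26 (SE; edgeR adjusted p = 0.0748) with all libraries and 1.0 without the third pair (edgeR adjusted p = 0.00447). Sema3e, which binds Plxnd1 without a neuropilin, stood at 13.9, 15.8 and 6.45 CPM in IP and at 23.9, 26.4 and 11.2 CPM in unbound libraries. Each IP library was below the unbound library of its own number, but the groups overlapped because unbound replicate 3 lay below IP replicates 1 and 2. The log2 fold change was -0.77 ± 0.40 (edgeR adjusted p = 0.159), and it passed with the replicate number as a block (-0.77, edgeR adjusted p = 0.00639) and without the third pair (-0.78, edgeR adjusted p = 0.00283). Sema3a, the first vertebrate semaphorin described as a growth cone collapsing factor, had 20.9, 26.2 and 9.45 CPM in IP and 22, 23.3 and 3.45 CPM in unbound libraries. It differed more between the third pair and the rest than between IP and unbound RNA. Sema3c and Sema3d averaged 9.95 ± 3.07 and 4.44 ± 2.22 CPM in IP and 9.97 ± 0.70 and 5.01 ± 1.6 CPM in unbound libraries. Sema3b averaged 0.97 ± 0.43 CPM in IP and 1.13 ± 0.19 CPM in unbound libraries. Sema3g, with 4, 5 and 2 reads in IP and 0, 1 and 8 reads in unbound libraries, was below the filter, and the 0 reads allow up to 0.0752 CPM in that library, counting error only.

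Class 4 semaphorins are transmembrane ligands of B plexins and of other receptors. Of 6, Sema4f and Sema4a rose and 4 did not pass. Sema4f, found at synapses, stood at 97.3, 90.3 and 59.5 CPM in IP, against 42.2, 38.1 and 40.6 CPM in unbound libraries. Every IP library was above every unbound one, and the unbound values lay within a narrow range. The difference was 2.04-fold (log2 1.03 ± 0.19, edgeR adjusted p = 0.00282). Sema4a, best known from photoreceptors and immune cells, had 44.9, 39.6 and 28.7 CPM in IP and 18.6, 18.3 and 21.8 CPM in unbound libraries. The groups did not overlap here either, and the difference was 1.93-fold (log2 0.95 ± 0.19, edgeR adjusted p = 0.00402). A counted microRNA feature lies within exons of Sema4a on the same strand. With lane 2 libraries alone (2 per group) neither passed, at 0.93 for Sema4f and 0.87 for Sema4a (edgeR adjusted p = 0.0552 and 0.0654). Sema4g had 39.0, 33.7 and 29.3 CPM in IP and 21.0, 16.9 and 30.4 CPM in unbound libraries. It overlapped through unbound replicate 3 alone, and its log2 fold change was 0.58 ± 0.22 (edgeR adjusted p = 0.0643), or 0.92 without the third pair (edgeR adjusted p = 0.00132). Sema4d, the ligand of Plxnb1, averaged 32.6 ± 6.13 CPM in IP and 37.7 ± 2.05 CPM in unbound libraries (log2 -0.21 ± 0.16, edgeR adjusted p = 0.323). Sema4b and Sema4c were at 0.01 ± 0.19 and 0.10 ± 0.32 on the log2 scale.

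The class 5 semaphorins carry thrombospondin repeats outside the cell. Sema5a had 127, 140.4 and 96.5 CPM in IP and 125, 141 and 97.6 CPM in unbound libraries, a close match library by library (log2 -0.00066 ± 0.19, edgeR adjusted p = 0.998). Sema5b stood at 17.4, 18 and 6.25 CPM in IP and at 17.8, 17.7 and 10.6 CPM in unbound libraries, with both replicates 3 below the rest.

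Class 6 semaphorins are transmembrane ligands of A plexins. Of 4, Sema6b and Sema6c rose, while Sema6a and Sema6d did not pass. Sema6b had 63.4, 63.2 and 39.6 CPM in IP, against 35.6, 34.2 and 27.0 CPM in unbound libraries, a 1.72-fold difference without overlap (log2 0.78 ± 0.21, edgeR adjusted p = 0.0148). Its transcript has the highest GC content of the family, 63.5%, and with a GC trend removed the value was 0.43 and did not pass (edgeR adjusted p = 0.0994), whereas with the replicate block and the GC trend removed it was 0.41 and passed (edgeR adjusted p = 0.0250). It also did not pass without IP replicate 1 or IP replicate 2, at 0.68 and 0.69 (edgeR adjusted p = 0.0585 and 0.0545). Sema6c had 10.8, 9.77 and 6.58 CPM in IP and 4.21, 4.33 and 4.73 CPM in unbound libraries. That is a 2.04-fold difference without overlap (log2 1.03 ± 0.24, edgeR adjusted p = 0.00806). With lane 2 libraries alone Sema6b was at 0.72 and Sema6c at 0.96, and neither passed (edgeR adjusted p = 0.120 and 0.0964). Sema6d had the opposite sign, with 100.5, 108 and 80.8 CPM in IP below 117, 112 and 141 CPM in unbound libraries. Although the groups did not overlap, its log2 fold change of -0.35 ± 0.16 did not pass (edgeR adjusted p = 0.0973). Sema6a averaged 86.1 ± 24.9 CPM in IP and 88.7 ± 12.3 CPM in unbound libraries.

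Sema7a, the lipid-anchored semaphorin that binds Plxnc1 and beta 1 integrin, fell to 32.6, 39.6 and 25.1 CPM in IP, against 38.4, 58.6 and 48.7 CPM in unbound libraries. IP replicate 2 was above unbound replicate 1, so the groups overlapped. The log2 fold change of -0.58 ± 0.21 passed narrowly (edgeR adjusted p = 0.0492). It did not pass without IP replicate 1, IP replicate 3 or unbound replicate 2 (-0.57, -0.41 and -0.42, edgeR adjusted p = 0.126, 0.151 and 0.180), without the third pair (-0.45, edgeR adjusted p = 0.0840) or with lane 2 libraries alone (-0.59, edgeR adjusted p = 0.119).

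Both neuropilins rose. Nrp2, the co-receptor preferred by Sema3f, stood at 100.8, 115 and 85 CPM in IP, against 47.2, 47.3 and 28.2 CPM in unbound libraries, and it had the largest rise of the family at 2.45-fold (log2 1.30 ± 0.22, edgeR adjusted p = 0.00194). Nrp1, the co-receptor of Sema3a that also binds vascular endothelial growth factor, had 38.5, 33.3 and 35.2 CPM in IP and 23.5, 23.5 and 17.2 CPM in unbound libraries, a 1.67-fold difference (log2 0.74 ± 0.17, edgeR adjusted p = 0.00718). Neither gene overlapped between groups. A counted microRNA feature lies within exons of Nrp1 on the same strand. Nrp2 passed in each of the 19 alternative fits (0.70 to 1.43), and Nrp1 in 18, the exception being pan-neuronal scaling (0.15, edgeR adjusted p = 0.526). Neuropilins made up 21.4% ± 2.37 of the summed receptor level per kb in IP, against 12.6% ± 0.67 in unbound libraries (SD, n = 3 each), and these ranges did not overlap. Nrp1 is also known from blood vessels, and of 11 vascular markers tested 0 rose and 8 fell, with a summed level of 4.76 to 10.9 CPM in IP against 40.8 to 55.9 CPM in unbound libraries. The sums are over all 12 listed markers, including Cldn5, which was below the filter. Of these 12 markers 2, Cdh5 and Cldn5, were at 0 in at least 1 IP library. In bulk RNA, fewer cells of a type and less RNA per cell cannot be told apart. The part of vascular cells in the level of Nrp1 was not tested.

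The promoters of Nrp2 and Nrp1 are shown because these co-receptors rose together, and those of Plxnb1 and Plxnb3 because these receptors fell together. Each runs from 250 bases before the annotated start to 50 bases after it, 5′ to 3′ on the gene's strand (RefSeq, GRCm38.p6). They lie at chr1:62703067-62703366 for Nrp2, chr8:128358823-128359122 for Nrp1, chr9:109095186-109095485 for Plxnb1 and chrX:73756853-73757152 for Plxnb3, all on the plus strand. Capitals mark the letters ACAAAG or their reverse complement CTTTGT, the core bound by Sox factors.
Nrp2 promoter: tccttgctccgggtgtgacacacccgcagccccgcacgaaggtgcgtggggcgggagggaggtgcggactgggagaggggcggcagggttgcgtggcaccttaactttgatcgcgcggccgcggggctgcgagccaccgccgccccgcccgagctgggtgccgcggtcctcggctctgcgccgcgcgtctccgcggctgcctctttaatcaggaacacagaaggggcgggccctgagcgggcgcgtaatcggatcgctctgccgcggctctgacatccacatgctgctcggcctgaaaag
Nrp1 promoter: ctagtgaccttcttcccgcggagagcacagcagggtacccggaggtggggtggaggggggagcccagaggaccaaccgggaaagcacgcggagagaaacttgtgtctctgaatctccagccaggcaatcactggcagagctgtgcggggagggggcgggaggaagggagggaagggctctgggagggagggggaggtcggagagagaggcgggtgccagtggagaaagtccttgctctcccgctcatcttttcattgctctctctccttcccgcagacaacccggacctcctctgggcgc
Plxnb1 promoter: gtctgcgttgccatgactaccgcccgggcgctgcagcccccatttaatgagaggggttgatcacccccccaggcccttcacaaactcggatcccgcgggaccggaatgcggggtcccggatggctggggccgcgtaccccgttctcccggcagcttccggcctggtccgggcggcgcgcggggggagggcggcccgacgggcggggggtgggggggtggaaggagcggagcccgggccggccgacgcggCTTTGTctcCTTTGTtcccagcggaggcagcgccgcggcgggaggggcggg
Plxnb3 promoter: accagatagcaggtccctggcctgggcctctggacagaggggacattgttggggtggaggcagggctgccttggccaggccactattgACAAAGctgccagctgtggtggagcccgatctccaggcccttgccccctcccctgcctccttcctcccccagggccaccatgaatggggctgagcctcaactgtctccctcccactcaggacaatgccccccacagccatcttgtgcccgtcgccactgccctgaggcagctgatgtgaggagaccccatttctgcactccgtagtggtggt
The Nrp2 and Plxnb1 promoters are rich in CpG, with 37 and 36 CpG dinucleotides, while Nrp1 has 14 and Plxnb3 has 4, beside a median of 7 over 32851 promoters of this length. The Sox core was found in 0 places at Nrp2 and Nrp1, in 2 at Plxnb1 and in 1 at Plxnb3. The table lists 37 promoters for 26 genes of the family. The core is held by 8 of these 37 (21.6%) and by 18.7% of all promoters, so the shares are close. The B plexins Plxnb1, Plxnb2 and Plxnb3 are among these 8. The homeodomain core TAATTA, the same on both strands, was found in 0 of the 37 and in 5.29% of all. These are matches of letters and not sites of binding.

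A plexins transduce class 3 signals with neuropilins and bind class 6 semaphorins directly. Of 4, Plxna1 rose and 3 did not pass. Plxna1 had 124, 120.2 and 77.0 CPM in IP, against 61.9, 67.9 and 61.2 CPM in unbound libraries. Every IP library was above every unbound one, a 1.68-fold difference (log2 0.75 ± 0.19, edgeR adjusted p = 0.0119). It did not pass with lane 2 libraries alone (0.71, edgeR adjusted p = 0.102), and an annotated antisense gene shares exons with it. Plxna4 had 159, 164 and 127 CPM in IP and 108, 138 and 96.4 CPM in unbound libraries. Each IP library was above the unbound one of its number, and the log2 fold change of 0.40 ± 0.17 (edgeR adjusted p = 0.0893) passed with the replicate block (0.41, edgeR adjusted p = 0.0244). Plxna2 stood at 94.9, 108 and 61.1 CPM in IP and at 113, 139 and 48.7 CPM in unbound libraries. The third pair was low in both groups and ran opposite to the other 2. Plxna3, the A plexin at the lowest level, averaged 10.4 ± 2.8 CPM in IP and 10.3 ± 2.74 CPM in unbound libraries.

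B plexins, receptors of class 4 semaphorins, included 2 of 3 genes that fell. Plxnb3, a receptor of Sema5a found in oligodendrocytes, fell to 1.97, 3.21 and 1.73 CPM in IP, against 14.7, 12 and 23.6 CPM in unbound libraries, the largest difference in the family at 7.31-fold lower (log2 -2.87 ± 0.34, edgeR adjusted p = 4.4e-04). Plxnb1, the Sema4d receptor, had 8.39, 7.10 and 7.14 CPM in IP and 20.7, 20.0 and 17.4 CPM in unbound libraries, 2.56-fold lower (log2 -1.36 ± 0.17, edgeR adjusted p = 5.6e-04). Both passed in each of the 19 alternative fits. Plxnb2, common in glia and progenitors, averaged 22.6 ± 7.22 CPM in IP and 17.8 ± 3.29 CPM in unbound libraries and did not pass (log2 0.34 ± 0.26, edgeR adjusted p = 0.309). Together B plexins made up 7.02% ± 0.60 of the receptor level per kb in IP and 16% ± 4.45 in unbound libraries. Oligodendrocyte markers moved with Plxnb3: all 10 fell, their summed level was 341 to 572 CPM in IP against 3650 to 7020 CPM in unbound libraries, and 0 of them were at 0 in an IP library. All 8 markers of oligodendrocyte precursors fell as well (21.1 to 45.1 CPM in IP against 243 to 394 CPM in unbound libraries). Unbound replicate 3 was highest both for the oligodendrocyte sum and for Plxnb3. For Plxnb1 it was the lowest unbound library, at 17.4 CPM against 20.7 and 20.0 CPM. The part of these cells in the falls of Plxnb3 and Plxnb1 was not tested. An annotated antisense gene overlaps Plxnb1, and strand use in counting is not given in the sources used here.

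Plxnc1, the receptor of Sema7a, and Plxnd1, the receptor of Sema3e, did not pass in the reported edgeR fit, although both had an unadjusted p under 0.05. Plxnc1 had 115, 105 and 74.2 CPM in IP and 74.3, 76.4 and 37.7 CPM in unbound libraries. IP was above unbound RNA within each number, and the log2 fold change of 0.65 ± 0.28 (edgeR adjusted p = 0.0932) passed with the replicate block (0.69, edgeR adjusted p = 0.00740) and without the third pair (0.53, edgeR adjusted p = 0.00450). Plxnd1 had 6.20, 5.62 and 2.51 CPM in IP and 23.1, 24.2 and 4.27 CPM in unbound libraries. Unbound replicate 3 alone made the groups overlap. Its value was -1.85 ± 0.67 (edgeR adjusted p = 0.0616) with all libraries, -2.01 without the third pair (edgeR adjusted p = 2.2e-05) and -1.61 with the replicate block (edgeR adjusted p = 0.00649). It also passed with the GC trend removed (-2.13, edgeR adjusted p = 0.0439) and in DESeq2 (-1.88, adjusted p = 0.0411). The summed level of striatal and cortical markers moved with it. That sum was 269 to 519 CPM in IP libraries, 2090 and 1980 CPM in unbound replicates 1 and 2 and 156 CPM in unbound replicate 3. Of these 11 markers 1 fell and 10 did not pass, and 0 were at 0 in an IP library. Tbr1 was the 1 marker with a positive log2 fold change (1.34, edgeR adjusted p = 0.441). It stood at 74.9, 112 and 65.7 CPM in IP, against 35.8, 63.7 and 0.38 CPM in unbound libraries. Their part in the level of Plxnd1 was not tested.

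The plexin-domain genes encode receptors of pigment epithelium-derived factor and are not semaphorin receptors. Plxdc1, also called tumor endothelial marker 7, stood at 17.3, 17.4 and 9.87 CPM in IP and at 10.3, 9.80 and 6.76 CPM in unbound libraries. It was at 0.73 ± 0.27 (edgeR adjusted p = 0.0521), passing with the replicate block (0.71, edgeR adjusted p = 0.0137) and without the third pair (0.77, edgeR adjusted p = 0.00392). Plxdc2 was at 0.14 ± 0.18 (edgeR adjusted p = 0.538).

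Summed per kb, ligands stood at 103, 106 and 68.3 CPM per kb in IP and at 79.3, 84.3 and 81.9 CPM per kb in unbound libraries. Receptors summed to 64.2, 63.4 and 45 CPM per kb in IP and to 47.9, 51.6 and 34.6 CPM per kb in unbound libraries. The ratio of ligands to receptors was 1.60, 1.67 and 1.52 in IP, against 1.66, 1.63 and 2.37 in unbound libraries, so the groups overlapped and unbound replicate 3 stood apart. The difference between groups, -0.22 on the log2 scale, was no larger than the spread between libraries (pooled SD 0.22), and it was -0.05 without unbound replicate 3. It was -0.03 without Sema7a and Plxnc1, the ligand and the receptor with the highest mean level per kb over all libraries. Its sign turned, to 0.29, as a difference of mean log2 levels. Class 6 semaphorins took 37.0%, 37.8% and 37.2% of the ligand level in IP and 38.3%, 34.4% and 39.8% in unbound libraries, and these ranges overlapped. Class 4 semaphorins took 37.2%, 34.1% and 37.0% of the ligand level in IP and 26.2%, 23.8% and 27.7% in unbound libraries, without overlap. A plexins took 50.1%, 51.3% and 49.0% of the receptor level in IP and 46.8%, 51.0% and 52.2% in unbound libraries, and these ranges overlapped.

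**Figure D3:**
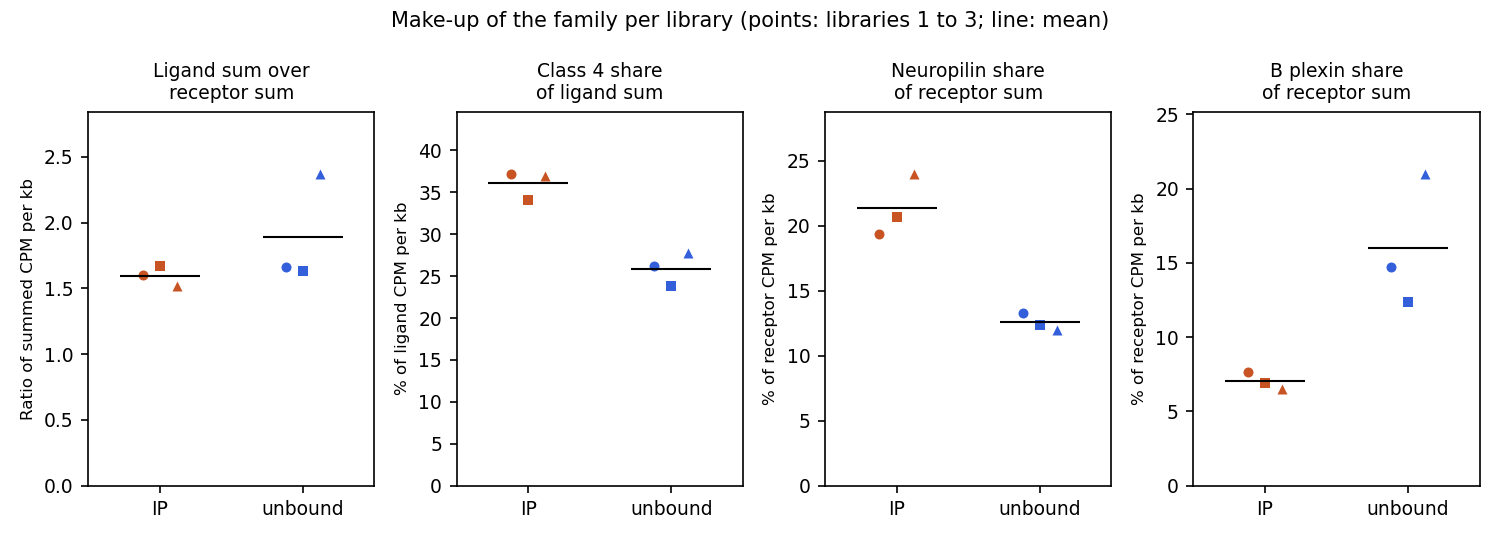
The ratio of summed ligand to summed receptor level and the shares of class 4 semaphorins, neuropilins and B plexins, in 3 IP libraries (left) and 3 unbound libraries (right) of each panel. Points are libraries, with the symbol giving the replicate as in the plot of levels, and lines are means. The ratio overlaps between groups, while the 3 shares do not.

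A ratio between 2 genes of the same library does not depend on how the libraries are scaled. The 7 ratios given were chosen after their values were seen and carry no test. Nrp2 over Nrp1, per kb, was 2.17, 2.86 and 1.99 in IP, against 1.66, 1.67 and 1.36 in unbound libraries. Plxnb2 over Plxnb1 was 4.28, 4.23 and 2.56 in IP and 1.22, 1.19 and 1.01 in unbound libraries. The ligand Sema7a stood at 0.71, 0.95 and 0.86 of the level of its receptor Plxnc1 in IP and at 1.31, 1.94 and 3.27 times that level in unbound libraries. Sema4f over Sema4d was 4.08, 3.50 and 3.36 in IP and 1.73, 1.46 and 1.49 in unbound libraries. Sema6b over Sema6d was 1.68, 1.56 and 1.30 in IP and 0.81, 0.82 and 0.51 in unbound libraries. Nrp2 over Plxnb1 was 9.73, 13.1 and 9.65 in IP and 1.85, 1.92 and 1.32 in unbound libraries. These 6 ratios did not overlap between groups. Plxna1 over Plxna2 did overlap, at 2.47, 2.11 and 2.39 in IP and 1.04, 0.93 and 2.38 in unbound libraries.

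**Figure D4:**
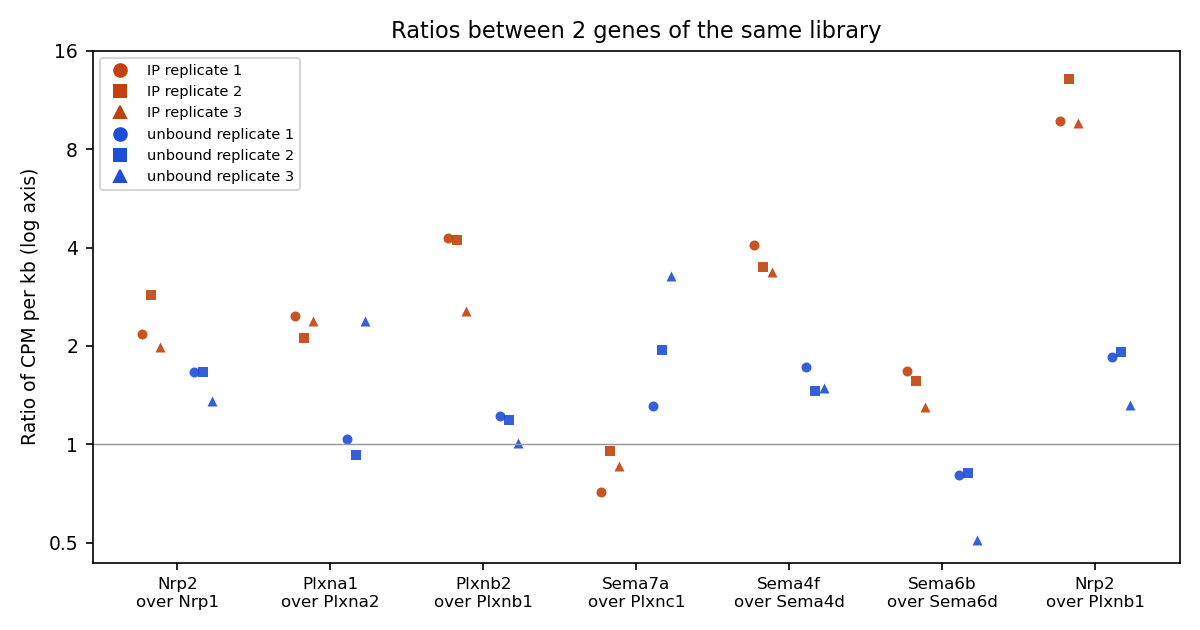
Ratios between 2 genes of the same library, as CPM per kb on a log axis, with the 3 IP libraries to the left and the 3 unbound libraries to the right for each pair of genes. In 6 of the 7 pairs the libraries of a group lie apart from the other group, and Plxna1 over Plxna2 overlaps through unbound replicate 3.

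Other genes of the pathway were listed by role. Of 18 co-receptors and other partners 16 were tested, and 1 rose and 7 fell (6.25% and 43.8%, beside 21.1% and 23.2% of all genes), with a median of -0.80. Chl1, a cell adhesion molecule that joins neuropilins in semaphorin signalling, rose by 1.06 ± 0.22 on the log2 scale (edgeR adjusted p = 0.00455). Those that fell with the smallest adjusted p were Tyrobp and Trem2, which pair with Plxna1 in myeloid cells, at -4.11 ± 0.36 and -3.78 ± 0.998, Itga1, a partner of Sema7a, at -3.09 ± 0.69, and Cntn2, an axonal adhesion molecule, at -0.92 ± 0.28. Microglia markers moved with Tyrobp and Trem2. Of 10 such markers 9 fell, their summed level was 11.2 to 31.4 CPM in IP against 93.7 to 147 CPM in unbound libraries, 0 of them were at 0 in an IP library, and their part was not tested. Of 33 genes of intracellular signalling, all tested, 7 rose and 5 fell (21.2% and 15.2%), with a median of 0.17. The share that rose is close to that of all genes (21.1%), and the share that fell is below that of all genes (23.2%). Cdk5 (0.81 ± 0.14), a kinase that takes part in the Sema3a response, and Pak1 (0.70 ± 0.15), Arhgap35 (0.64 ± 0.17) and Limk2 (0.59 ± 0.17), which act on the actin cytoskeleton, had the smallest adjusted p among the rises. Rock1 (-1.74 ± 0.21), a protein kinase, Rras2 (-1.33 ± 0.21), a Ras-family GTPase, Farp1 (-0.88 ± 0.20), an exchange factor for small GTPases, and Mical1 (-2.69 ± 0.63), an actin oxidase, led the falls. The collapsin response mediators Dpysl2, Dpysl3, Dpysl4, Dpysl5 and Crmp1 lay between -0.06 and 0.48 and did not pass.

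**Figure D5:**
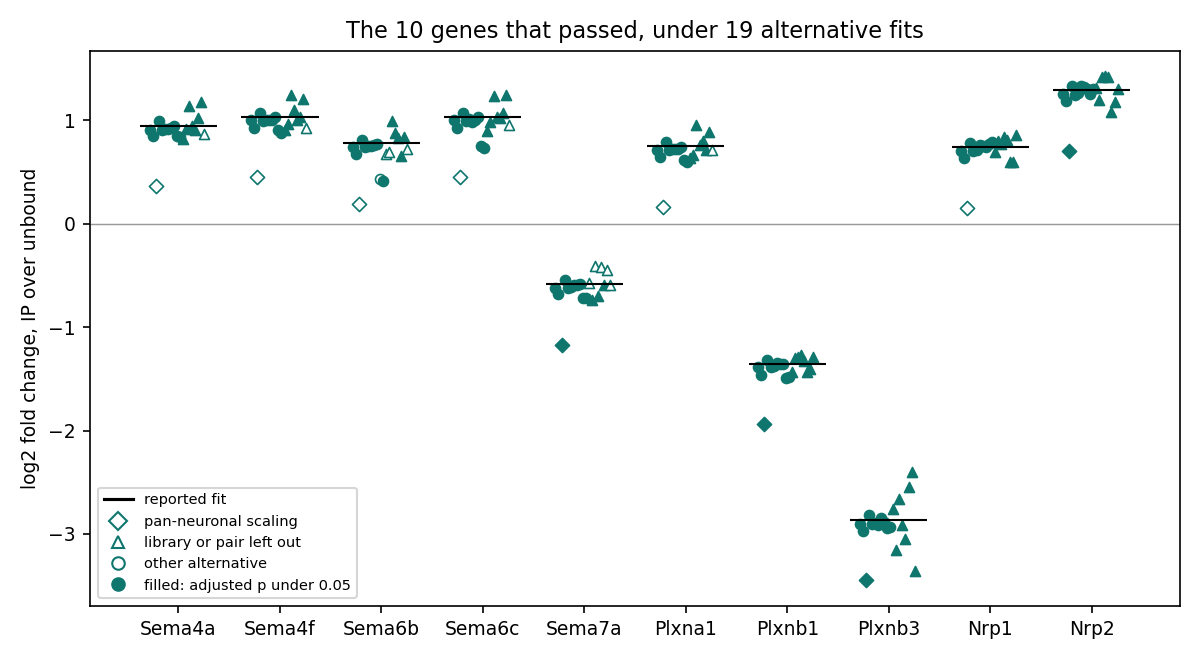
Log2 fold change, IP over unbound, of the 10 genes that passed, in the reported fit (line) and in 19 alternative fits (symbols, filled where the adjusted p was under 0.05). Plxnb3, Plxnb1 and Nrp2 are filled throughout, while pan-neuronal scaling, the diamonds, lies lowest for each gene and leaves Nrp2 as the 1 rise that passed.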

How the data were processed

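Total RNA from 3 IP and 3 unbound libraries was sequenced. The authors deposited whole-number counts of reads per gene, made with STAR 2.0.0e on mm10 and with HTSeq, per the submitters' processing notes. Annotation, HTSeq version and strand setting: not given in the sources used here. Entries that name no gene (52.3% to 55.0% of all reads listed) stayed out of library sizes and tests. Most of them are reads that align to several places, which can lower genes with near-identical copies. Such reads were 43.8% to 45.0% of all in IP and 31.8% to 32.9% in unbound libraries. Reads that fit more than 1 gene were 1.58% to 1.64% in IP and 7.08% to 9.02% in unbound libraries. Reads on no gene were 7.57% to 8.0% in IP and 12.5% to 13.5% in unbound libraries. These shares split by group, and their effect on the fold changes was not tested. Sample type in the labels set the groups.

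The members and lists were chosen with earlier results of these data known, and the lists of hypothalamic peptides and of midbrain and hindbrain genes were added after the data were seen. All 33 members matched GENCODE M21 (GRCm38), as did 23933 of 32531 features. The union of exons gave length and the longest transcript GC content. Exons of 7 members overlap another annotated gene.

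Tests used edgeR 4.0.16 in R 4.3.3: TMM scaling, filterByExpr (minimum count 10, minimum total 15), a robust quasi-likelihood fit with group as its 1 term, and p-values adjusted by Benjamini-Hochberg over 16991 genes (threshold 0.05). The SE printed is the size of the log2 fold change over the square root of its F statistic. Simulated counts with known changes, drawn for IP against unbound (16695 genes), gave back 45% of the 100 genes made to differ 2-fold and 89% of the 100 made to differ 4-fold, with 12 false calls among 146. Far fewer genes differed there than in the data, where 44.3% of all genes passed. The adjustment was therefore stricter in the simulation, and these shares cannot be carried over to the reported fit. Alternatives used DESeq2 1.42.0, limma-voom (limma 3.58.1), other scalings and filters, lane, a replicate block, a GC trend and libraries left out. Every member is accounted for, and other pathway genes were named if among the 4 with the smallest adjusted p in a direction, except the collapsin response mediators, which were chosen after their values were seen.

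Same-numbered IP and unbound libraries deviated together from their group means (correlations across genes, which are not independent replicates, of 0.14, 0.16 and 0.21 for replicates 1 to 3). By the rule that each be over 0.1 the numbers were taken to pair the libraries. The reported fit leaves this pairing out, and the fit with the replicate block, given beside it, takes it up. No label states a pairing. Lane 4 holds replicate 2 and lane 2 the others, so lane and number cannot be told apart. Replicates of a group differed by more than counting noise (chi-square per degree of freedom 23.0 to 136).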

Additional observations from a re-analysis of the deposited data

How the results depend on the processing

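The directions of the 10 genes that passed held in all 19 alternative fits, and Plxnb3, Plxnb1 and Nrp2 passed in each. Scaling on pan-neuronal markers moved the counts most, as it shifts all genes down: over all genes 711 were higher and 7663 lower, in the family 1 and 10, among ligands 0 and 7, and 1 receptor was higher. It cut the share of higher calls among all calls to 8.5%, against 47.6% in the reported fit, and lane 2 libraries alone gave 33.8%. Genes that had not passed changed sign with it: Sema3a (-0.41), Sema4b (-0.57), Sema4c (-0.49), Plxna3 (-0.56), Plxna4 (-0.19), Plxnb2 (-0.25) and Plxdc2 (-0.44). With the replicate block, with or without the GC trend removed, 5 members and 2 ligands were lower and 5 receptors higher. The replicate block without the GC step changed the calls of Plxna4, Plxnc1, Plxdc1, Sema3e and Plxnd1 and no other call of the family. Library size alone gave 2 ligands lower. The ligand to receptor ratio was -0.22 on the log2 scale as a ratio of sums and 0.29 as a difference of mean log2 levels, where each gene has equal weight.

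Values near 0 changed sign under several settings. Sema4b was at -0.02 with median-ratio factors, -0.09 with library size alone, -0.03 with a filter of 1 CPM in 3 libraries, -0.01 in DESeq2 and limma-voom, and -0.09 with the GC trend removed, also with the replicate block. Plxna3 was at -0.01 with median-ratio factors and with the 1 CPM filter, -0.08 with library size alone and -0.03 with the GC trend removed, also with the replicate block. Sema4c was at -0.03 with the GC trend removed and -0.06 with the replicate block added. Sema3c was at 0.03 with no count filter and 0.02 with the GC trend removed. Sema5a, at -0.00066 in the reported fit, was at 0.03 with each of these and at 0.04 with the replicate block and the GC trend removed. The cause was not tested.

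With 1 library, the third pair or the lane 4 pair left out, all genes higher ranged from 1297 to 4429 and lower from 2538 to 4649. Members higher ranged from 2 to 12 and lower from 2 to 5, ligands higher from 0 to 6 and lower from 0 to 2, and receptors higher from 2 to 5 and lower from 2 to 3. The ratio ranged from -0.31 to -0.05. Genes that changed sign ranged from -0.53 to 0.13 (Plxna2), -0.18 to 0.38 (Plxna3), -0.28 to 0.57 (Sema3a), -0.61 to 0.04 (Sema3b), -0.15 to 0.26 (Sema3c), -0.52 to 0.40 (Sema3d), -0.11 to 0.13 (Sema4b), -0.08 to 0.37 (Sema4c), -0.14 to 0.16 (Sema5a), -0.37 to 0.22 (Sema5b) and -0.29 to 0.28 (Sema6a). With single IP libraries left out the range was -0.13 to 0.26 for Sema3c, -0.21 to 0.20 for Sema6a and -0.17 to 0.24 for Plxna3. Without the third pair Sema3c was at 0.18, and with lane 2 alone Sema4b was at -0.05. Depth limits Sema3g and Sema3b most. With 3 libraries a group the simulated test missed many 2-fold changes, but far fewer genes differed there than in the data. It cannot give the share missed here.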

Other observations

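IP replicate 3 was the lowest of the IP libraries for 29 of the 32 tested genes of the family (90.6%), against 35.4% of all genes tested. The exceptions were Sema3b, Plxnb1 and Nrp1. Genes of one library are not independent, and this position was noticed after the values were seen. Unbound replicate 3 was lowest in its group for 17 of the 32 (53.1%), against 32% of all genes. The family has long and GC-rich transcripts, with medians of 7.70 kb of exons and 56.2% GC, against 4.37 kb and 49.7% over 15437 annotated genes tested. IP replicate 3 was lowest for 30.5% of genes with 10 kb of exons or more, 35.7% of those with 5 to 10 kb and 41.3% of those with a GC content of 55% or more. The summed level of 20 pan-neuronal markers was 24200 CPM in IP replicate 3, 24200 in IP replicate 1 and 26000 in IP replicate 2. The summed level of the intracellular signalling list was higher in IP replicate 3 (7560 CPM) than in IP replicates 1 and 2 (6430 and 6910 CPM). That of the co-receptors and other partners was lower in IP replicate 3 (536 CPM) than in IP replicates 1 and 2 (883 and 940 CPM). A low IP replicate 3 was thus not particular to the family.

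Thalamic markers, listed beside the family, went both ways, with 2 of 8 higher and 5 lower in IP.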
